A study of Mus musculus with 3 samples.

Results

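Osteopontin and mineralization genes are described here across the cells of mouse flexor digitorum longus (FDL) tendons, the tendons that bend the digits of the hind paw, as measured by single-cell RNA sequencing (scRNAseq). The genes were picked by symbol and are 6 of the 32285 genes counted: *Spp1* (osteopontin), *Ibsp* (bone sialoprotein), *Runx2*, *Mgp* (matrix Gla protein), *Enpp1* and *Alpl*. Each was counted as unique molecular identifiers (UMIs) in 3 libraries, and each library came from a pool of 16 tendons, from males and females. The 6 M DTR library (DTR from here on) came from Scx-Cre+; DTR F/+ mice, in which Cre driven by the Scleraxis promoter, active from development on, turns on the receptor for diphtheria toxin (DT) in cells of the Scleraxis lineage and so makes DT lethal to them. The 6 M WT library (WT) came from Scx-Cre-; DTR F/+ littermates, which carry the same receptor allele without Cre. Both groups had 5 daily injections of DT; the labels give their age as 3M, the age at injection, and tendons were taken 3 months later. The 21 M B6 library (B6) came from untreated 21-month-old C57/Bl6 mice, for which the labels name no transgene. All 3 are labelled C57BL/6J. Tendons of WT were digested for 120 min and those of the other libraries for 90 min, so that digestion time cannot be told apart from the group, and for B6 neither can age, DT and the receptor allele.

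Mineral forms outside cells when phosphate is set free and the inhibitor pyrophosphate is removed. ENPP1 makes pyrophosphate from ATP, ANK helps to release it from the cell, and the alkaline phosphatase encoded by *Alpl* splits it into phosphate. Osteopontin and matrix Gla protein bind mineral and hold it back, bone sialoprotein is a mineral-bound protein of bone matrix, and RUNX2 is the transcription factor that osteoblasts and enlarging chondrocytes depend on. Osteopontin is also a signal that cells receive through CD44 and integrins, and it is made by macrophages as well as by skeletal cells. Tendons do not mineralize in health, except at their insertions into bone, but can do so after injury and with age.

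The cells analysed had 1000 to 5000 genes and no more than 10% mitochondrial UMIs, and numbered 8357 in WT, 6554 in DTR and 4798 in B6, with median depths of 13008, 12328 and 12914 UMIs. A kept cell was put in a class if it had UMIs of at least 4 of the class's 8 marker genes and of at least 2 more than for any other class; none of the 6 genes is a marker. This gave 5317, 2808 and 891 tenocyte-like cells in the order above, 980, 965 and 2362 epitenon-like cells (the sheath of the tendon) and 539, 1079 and 486 macrophage-like cells. T cell-, endothelial-, mural- (pericytes and smooth muscle), nerve- and muscle-like cells numbered 30 to 300 per class and library. The defining tenocyte markers were present, with a summed level of 16711 to 20083 CPM in tenocyte-like cells (CPM, UMIs of a gene per 1000000 UMIs of all genes in those cells). Of tenocyte-like cells that could be called by sex-linked genes, 72.6%, 41.1% and 51.9% were female in WT, DTR and B6. Kept cells of any pair of libraries shared 13 to 15 barcodes. There was 1 library per group, so nothing was tested: every range in parentheses is an exact 95% interval that covers counting error only.

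*Spp1* (ENSMUSG00000029304) lies at chr5:104435118-104441050 on the plus strand of GRCm38, and *Ibsp* (ENSMUSG00000029306) at chr5:104299171-104311469 on the same strand; *Mepe*, of the same family, is the only protein-coding gene in the 123648 bases between them. *Mgp* (ENSMUSG00000030218) lies at chr6:136872435-136875823, *Runx2* (ENSMUSG00000039153) at chr17:44495987-44814797, *Alpl* (ENSMUSG00000028766) at chr4:137741733-137796384 and *Enpp1* (ENSMUSG00000037370) at chr10:24637914-24712159, all on the minus strand. The 250 bases before the start of *Spp1* and of *Enpp1*, from RefSeq on GRCm38.p6 and outside the gene itself, are shown. Transcripts of both genes and of *Runx2* were higher in tenocyte-like cells of DTR than of WT, as were those of *Ibsp* and *Mgp*. Whether RUNX2 acts at either window was not tested. Each holds 1 match to the core letters of the RUNX motif (TGTGGT, or ACCACA on the other strand), in capitals; counted back from the last base of the window as −1, its first base is at −128 for *Spp1* and at −144 for *Enpp1*. The RefSeq start that sets the *Spp1* window lies before the GENCODE gene start given above, at the base after the window's end.
*Spp1* (chr5:104434861-104435110, plus strand): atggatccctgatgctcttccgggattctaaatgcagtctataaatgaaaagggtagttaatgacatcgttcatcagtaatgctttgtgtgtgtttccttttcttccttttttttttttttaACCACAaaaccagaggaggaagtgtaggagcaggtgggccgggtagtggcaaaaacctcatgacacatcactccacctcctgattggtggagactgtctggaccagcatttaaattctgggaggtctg
*Enpp1* (chr10:24712160-24712409, minus strand): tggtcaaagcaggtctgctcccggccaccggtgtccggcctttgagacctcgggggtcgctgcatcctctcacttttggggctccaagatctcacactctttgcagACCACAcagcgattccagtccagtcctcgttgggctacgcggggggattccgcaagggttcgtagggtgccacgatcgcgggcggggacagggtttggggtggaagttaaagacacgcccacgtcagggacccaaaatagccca
The RUNX letters occur in 14.0% of 32817 promoter windows of this length. Of the other windows matched, that of *Runx2* held 1 match, at −80 by the same count, and those of *Ibsp* and *Alpl* and a second window of *Spp1* held none; *Mgp* was not matched. The AP-1 letters (TGANTCA, read on both strands) occur in 6.75% of windows and in none of the members'.

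In tenocyte-like cells, 5 of the 6 genes reached the minimum of 5 CPM in WT or DTR. *Ibsp*, *Mgp* and *Runx2* were at least 2-fold higher in DTR, against 2.94% of the 9410 genes at that minimum, and no member was at least 2-fold lower, against 1.63%. *Spp1* and *Enpp1*, the other two, were between 1.5-fold and 2-fold higher, and *Alpl*, below the minimum, was lower. Between B6 and WT, 4 members reached the minimum: *Mgp* was at least 2-fold higher, against 3.39% of 9196 genes, and *Spp1* at least 2-fold lower, against 3.37%. Between B6 and DTR, *Spp1*, *Ibsp* and *Enpp1* of 5 members were at least 2-fold lower, against 8.14% of 9417 genes, and none was 2-fold higher, against 3.95%. The minimum was asked of 1 of the 2 libraries compared, here and for the lists below. A gene can thus enter only through the library where it is higher. *Ibsp* did so, at 24.5 CPM in DTR against 0.60 CPM in WT and 0.468 CPM in B6. Its level in DTR came from a few cells, described below, and the other tenocyte-like cells had 0.384 CPM. The median gene differed by a log2 ratio of 0.04 between DTR and WT and of −0.28 between B6 and WT. TMM scaling, which moves these medians to −0.07 and −0.04, gave 217 genes higher and 199 lower in DTR in place of 277 and 153, and 453 higher and 159 lower in B6 in place of 312 and 310.

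**Figure D1:**
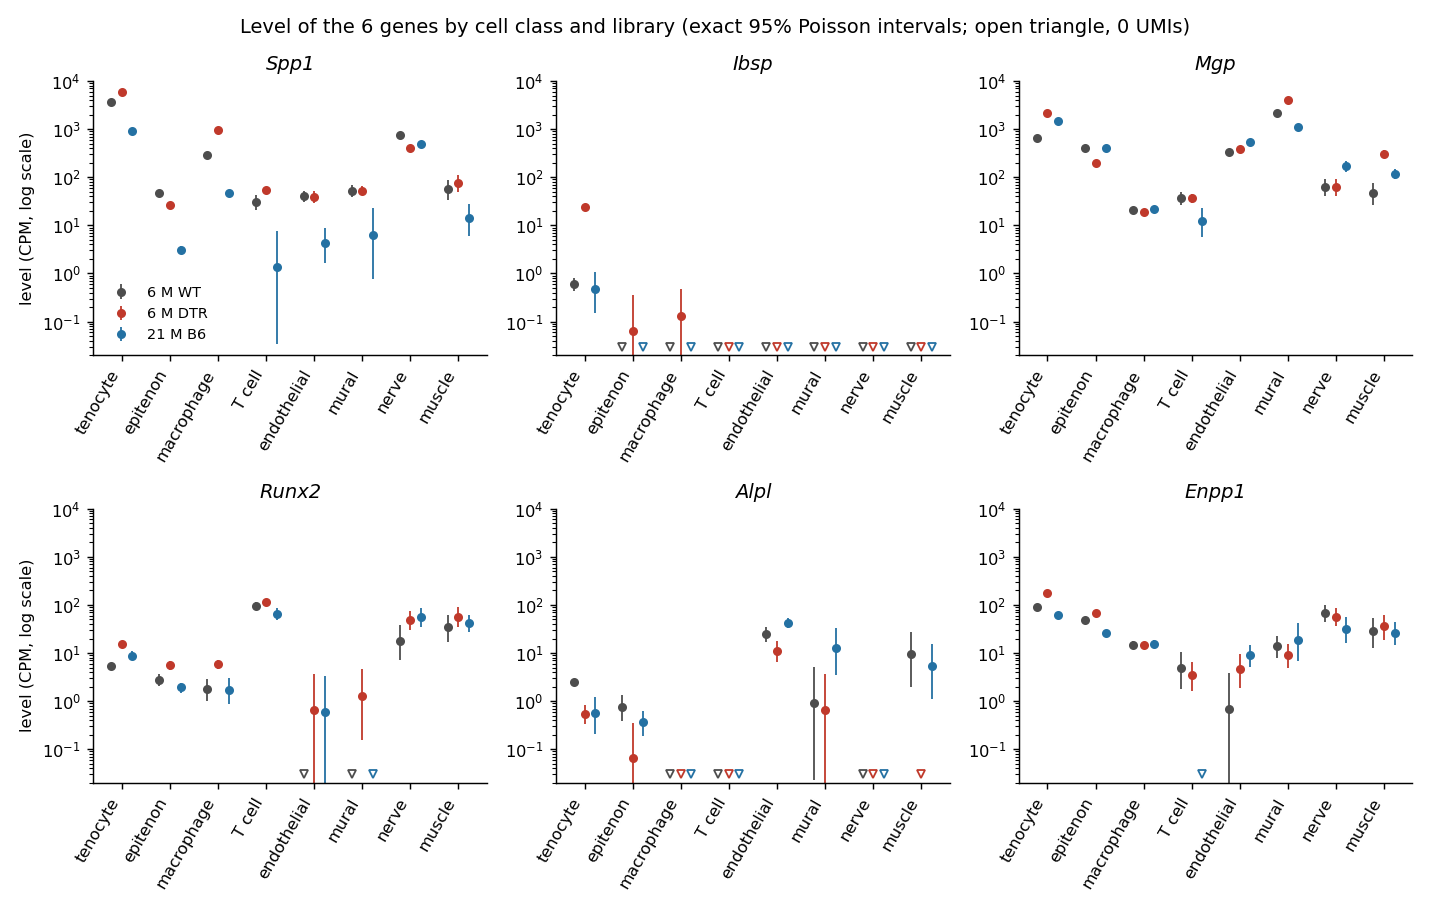
Level of the 6 genes (CPM, log axis) in 8 cell classes of WT (grey), DTR (red) and B6 (blue). Points are sums over the cells of a class in 1 library, bars exact 95% Poisson intervals and open triangles 0 UMIs. *Spp1* was highest in tenocyte-like cells of every library and *Alpl* in endothelial-like cells, while *Runx2* was highest in T cell-like cells.

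*Spp1*, a secreted phosphoprotein that binds both mineral and cell surface receptors, had its highest level in tenocyte-like cells: 3654.5 CPM (3641 to 3669) in WT, 5889 CPM (5865 to 5914) in DTR and 897 CPM (879 to 915) in B6. Tenocyte-like cells held 93.9%, 89.4% and 83.9% of the *Spp1* UMIs of kept cells, the base of every share of UMIs by class below. Kept cells had 278828, 243022 and 11418 *Spp1* UMIs, out of 308351, 294867 and 16322 over all barcodes. The level in DTR was 1.61 times that in WT (1.60 to 1.62), and 114 of the 2796 genes with at least 50 CPM had a larger ratio. In B6 the level was 0.245 times that in WT (0.24 to 0.25), a 4.08-fold difference, and 7 of 2691 genes had a smaller ratio. From DTR to B6 it was 6.57-fold lower, the lowest ratio of 2774 genes. The order DTR, WT, B6 was found in female and in male tenocyte-like cells, but the sizes differed: 1.43 times WT in female and 2.22 times in male cells of DTR, and 0.237 and 0.315 times in B6. In WT itself, female cells had 3964 CPM and male cells 2780 CPM.

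*Spp1* was spread unevenly over single tenocyte-like cells. With every cell thinned to 2000 UMIs, 59.4% (58.1 to 60.7) of them had *Spp1* in WT, 66.5% in DTR and 29.0% in B6; without thinning the shares were 77.3%, 83.1% and 43.7%. Endothelial-like cells, taken as a class that should lack it, had it in 9.09%, 10.5% and 2.03% of thinned cells, at median depths of 8423.5, 8539 and 9499.5 UMIs against 12915, 12375.5 and 11236 in tenocyte-like cells. The median cell had 7.24 *Spp1* UMIs per 10000 UMIs in WT, 12.3 in DTR and 0 in B6, and the highest cells had 919, 1324 and 259. The 10% of cells with most *Spp1* held 55.5% of its thinned UMIs in WT, 55.8% in DTR and 77.4% in B6. So the lower level in B6 went with fewer positive cells and with lower values in the highest cells, as the curves by percentile show.

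**Figure D2:**
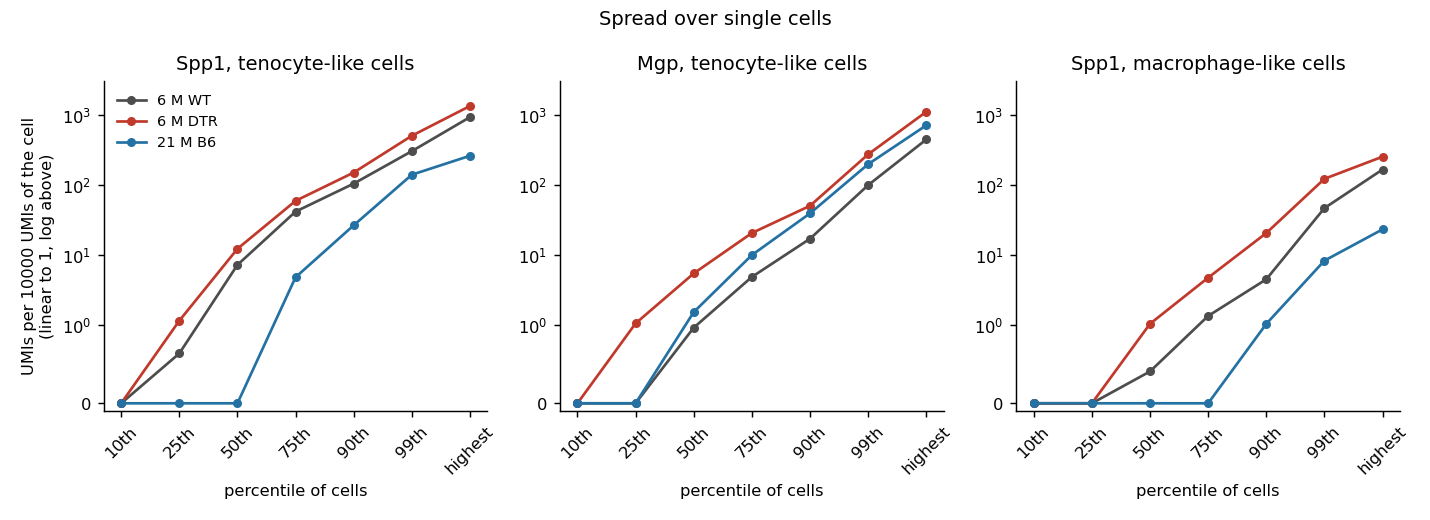
UMIs per 10000 UMIs of a cell (vertical axis, linear up to 1 and logarithmic above) at percentiles of cells (horizontal axis) for *Spp1* and *Mgp* in tenocyte-like cells and *Spp1* in macrophage-like cells, with 1 line per library. The DTR line runs at or above the WT line in every panel, while B6 lies at or below WT for *Spp1* and at or above it for *Mgp*.

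The difference between libraries was also present within most subsets of tenocyte-like cells, each split at the median of a marker set over the tenocyte-like cells of all 3 libraries, which was 0 UMIs for every set but the *Ucma* set. In cells above the cut for acute-phase genes (*Saa1*, *Saa2*, *Lcn2*) the *Spp1* level was 3750 CPM in WT, 8703 CPM in DTR and 905 CPM in B6, and in the others 3562, 5112 and 893 CPM. Splits by the *Slurp1* set (4027, 6710 and 968 CPM above, 3056, 5175 and 865 CPM below) and by the *Ucma* set (3620, 5728 and 1255 CPM above, 3693, 6127 and 788 CPM below) kept the order of the libraries. Cells above the cut for *Igfbp3* and *Scn7a*, 140, 142 and 58 in number, were the exception: they had 1276 CPM in WT, 984 CPM in DTR and 469 CPM in B6. This subset also had the highest *Mgp* level.

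Macrophages are a known source of osteopontin, and macrophage-like cells held 0.95% of *Spp1* UMIs in WT, 6.08% in DTR and 2.96% in B6. Their level was 294 CPM (282 to 305), 976 CPM (960 to 992) and 47.9 CPM (42.9 to 53.3). That is 3.32 times WT in DTR (3.19 to 3.47) and 0.163 times in B6 (0.145 to 0.183). Of 2984 genes with at least 50 CPM, 4 had a larger ratio in DTR, and 5 of 3050 a smaller one in B6. *Spp1* and *Runx2* were the 2 of 4 members that were at least 2-fold higher in macrophage-like cells of DTR, against 1.16% of 9035 genes, and none was 2-fold lower, against 1.52%; in B6 *Spp1* was the 1 of 3 members 2-fold lower, against 2.97% of 9094 genes, and none was 2-fold higher, against 4.04%. From DTR to B6 *Spp1*, with the lowest ratio of 2995 genes (20.4-fold lower), and *Runx2* were 2 of 4 members 2-fold lower, against 2.77% of 9181 genes, and none was higher, against 4.35%. *Runx2* reached the minimum in DTR alone, at 5.88 CPM against 1.77 CPM in WT and 1.70 CPM in B6. It thus entered these counts only through the library where it was higher. After thinning, 18.0%, 34.8% and 5.97% of macrophage-like cells had *Spp1*. RNA freed from broken tenocytes brings *Spp1* with tenocyte markers. The tenocyte markers found in macrophage-like cells would bring 58.2, 45.5 and 4.92 CPM of *Spp1*, and the measured levels were 5.04, 21.4 and 9.73 times as high. This estimate uses the mean of all tenocyte-like cells, among which *Spp1* was uneven. In WT the 134 macrophage-like cells with most *Spp1* had 645 CPM of tenocyte markers, against 132 CPM in the other 405. In DTR the values were 169 and 150 CPM, and in B6 104 and 92.9 CPM. Whether RNA of tenocytes rich in *Spp1* makes up part of the measured levels was not tested.

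Macrophage-like cells of WT and DTR differed by sex in level, and the order of the libraries was the same in both sexes. In B6 the intervals of female and male cells overlapped. Female cells had 190, 503 and 49.5 CPM of *Spp1* in WT, DTR and B6, and male cells 455, 1289 and 53.7 CPM, so that the ratios to WT were 2.65 and 2.83 in DTR and 0.261 and 0.118 in B6. Cells above the median for MHC class II genes over the 3 libraries had 309, 1017 and 69.5 CPM and those below 284, 915 and 30.6 CPM. Leaving out the 5% of cells with most UMIs gave ratios of 3.91 and 0.253 in place of 3.32 and 0.163.

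Of the other classes, nerve-like cells had the highest *Spp1* level. These cells, gated on Schwann cell markers, had 752 CPM in WT (64 cells), 411 CPM in DTR (70 cells) and 487 CPM in B6 (42 cells), 3.71, 4.23 and 79.4 times what free tenocyte RNA would bring. In WT and B6 these levels were above those of macrophage-like cells (294 and 47.9 CPM), and in DTR below (976 CPM). The median nerve-like cell had 0 *Spp1* UMIs in every library. The highest cells had 124, 71.8 and 81.1 in WT, DTR and B6, on the single-cell scale used for tenocyte-like cells above. The ratio of DTR to WT in nerve-like cells was 0.547 (0.452 to 0.661). This ratio and the nerve-like levels thus came from a minority of the cells, and the interval does not cover differences between cells. Endothelial-like cells had 40.4, 39.2 and 4.2 CPM and T cell-like cells 30.3, 53.2 and 1.36 CPM. Those levels were 0.542 to 1.01 times what free tenocyte RNA would bring, and mural-like cells had 52.4, 52.8 and 6.35 CPM. The estimate takes all tenocyte markers of a class as free RNA, and the source of these *Spp1* UMIs was not tested. Epitenon-like cells had 46.2 CPM in WT, 26.0 CPM in DTR and 3.12 CPM in B6, 0.121, 0.0709 and 0.0537 times what free RNA with their tenocyte markers would bring. The ratio of DTR to WT in epitenon-like cells, 0.563 (0.497 to 0.636), turned to 1.68 when cells with over 5000 genes were let in and was 1.00 in male cells. The upper quartile of single epitenon-like cells was 0.491 in both libraries, and the highest cell had 82.6 in WT and 6.11 in DTR.

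The receptors of osteopontin were read from the same cells. *Cd44*, which also binds hyaluronan, was highest in macrophage-like cells, with 1323, 958 and 648 CPM in WT, DTR and B6, and stood at 333, 261 and 332 CPM in tenocyte-like cells. In macrophage-like cells *Cd44* was the 1 receptor of 7 at the minimum past 2-fold in B6, at 0.490 times WT (0.474 to 0.507). Integrin subunits αv (*Itgav*; 191, 152 and 108 CPM), α4 (*Itga4*; 127, 132 and 88.4 CPM), α5 (*Itga5*; 227, 174 and 160 CPM) and α9 (*Itga9*; 39.7, 25.2 and 52.0 CPM) were all found in macrophage-like cells. In tenocyte-like cells β1 (*Itgb1*, at 376, 516 and 300 CPM) and β5 (*Itgb5*, at 116, 142 and 98.9 CPM) were present, while *Itga4* was below 1 CPM. Macrophage-like cells had 532, 565 and 394.5 CPM of *Itgb1* and 38.7, 46.9 and 41.5 CPM of *Itgb5*. Tenocyte-like cells also had *Itgav* (35.8, 48.1 and 34.3 CPM), *Itga5* (53.4, 51.4 and 50.6 CPM) and *Itga9* (8.08, 8.79 and 10.5 CPM). None of the 6 receptors at the minimum in tenocyte-like cells was 2-fold different in DTR, and 1 of 7 was higher in B6, *Itga8*, with 1.41 CPM in WT and 8.24 CPM in B6.

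*Ibsp*, which helps to start mineral in bone, was all but absent except in a few cells of DTR. Tenocyte-like cells had 43 UMIs in WT (0.60 CPM), 902 UMIs in DTR (24.5 CPM) and 5 UMIs in B6 (0.468 CPM). The ratio of DTR to WT was 40.7 (30 to 56.7), and that of B6 to WT was 0.780 (0.241 to 1.96), so a difference in B6 was not detectable at this depth. No *Ibsp* UMI was found in T cell-, endothelial-, mural-, nerve- or muscle-like cells of any library.

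Cells with at least 2 *Ibsp* UMIs, picked out after the values were seen, numbered 10 of 8357 in WT, 24 of 6554 in DTR and 2 of 4798 in B6. The 24 cells of DTR held 990 of the 1008 *Ibsp* UMIs of its kept cells, 98.2%. All barcodes of DTR together had 1223. The highest of the 24 cells had 224, and 13 cells had at least 10. In WT the highest cell had 8 and in B6 it had 2. All but 1 of the 24 cells were tenocyte-like, 8 were called female and 11 male, and their median depth was 18697.5 UMIs against 12375.5 in all tenocyte-like cells. By sex, the ratio of DTR to WT was 128 in female and 6.72 in male tenocyte-like cells. Few as they were, these cells set the *Ibsp* level of the kept cells of DTR: the other 2785 tenocyte-like cells had 0.384 CPM.

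**Figure D3:**
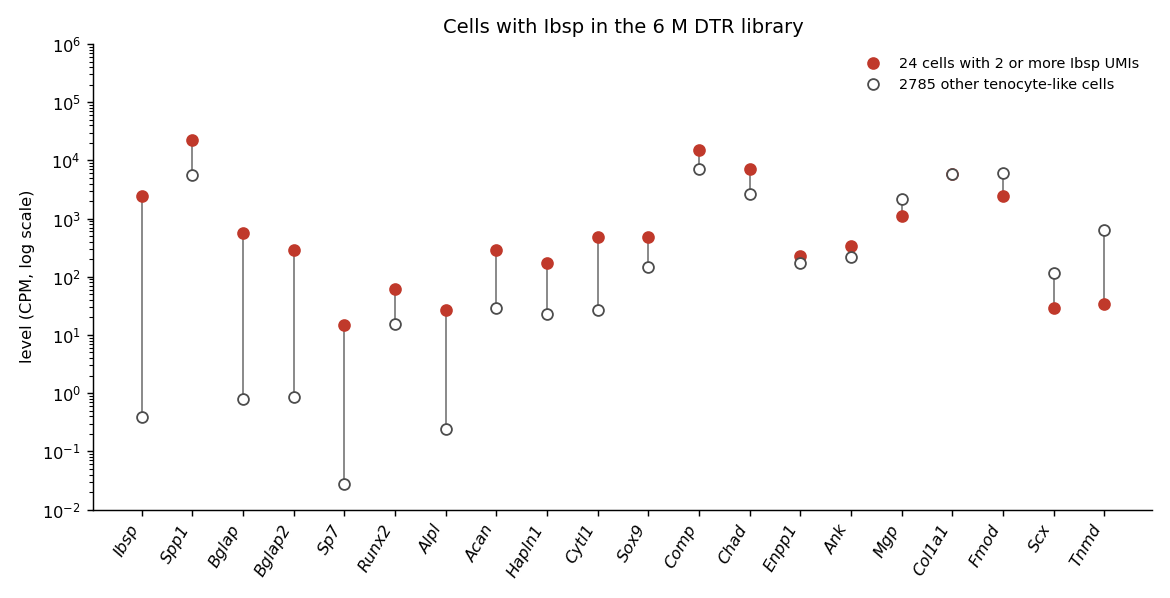
Level (CPM, log axis) of 20 genes in the 24 cells of DTR with at least 2 *Ibsp* UMIs (red) and in the 2785 other tenocyte-like cells of that library (open). Bone genes on the left and cartilage genes in the middle were higher in the 24 cells, and *Fmod*, *Scx* and *Tnmd* on the right were lower; the cells were chosen by *Ibsp*.

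The *Ibsp* cells of DTR also carried other skeletal transcripts, given here as a description of chosen cells. *Spp1* was at 22208 CPM in them and 5708 CPM in the other tenocyte-like cells. Osteocalcin (*Bglap* and *Bglap2*, near-identical genes whose reads may be split between them) was at 569 and 292 CPM against 0.795 and 0.850 CPM, but from 5 and 3 cells. *Sp7*, the osteoblast transcription factor downstream of RUNX2, was at 14.7 CPM against 0.0274 CPM, in 4 cells, *Runx2* at 61.3 CPM against 15.2 CPM, in 8 cells, and *Alpl* at 27.0 CPM against 0.247 CPM, in 2 cells. Of cartilage genes, *Acan* (aggrecan) was at 287 CPM against 29.6 CPM, in 17 cells, *Sox9*, the chondrocyte transcription factor, at 483 CPM against 149 CPM, in 17 cells, and *Hapln1*, a link protein, at 172 CPM against 22.8 CPM, in 13 cells. The others came from fewer cells: *Cytl1* (486 against 26.9 CPM) from 3 and *Col2a1* (31.9 against 4.17 CPM) from 2, while *Col10a1*, a collagen of enlarged chondrocytes, was at 0. *Chad* (7185 against 2675 CPM) and *Comp* (15008 against 7155 CPM), matrix proteins of cartilage and tendon, were higher too. Tendon genes were lower, with *Tnmd* (tenomodulin) at 34.3 CPM against 634 CPM and *Scx* at 29.4 CPM against 115 CPM. *Mgp* was at 1094 CPM against 2189 CPM, *Col1a1* at 5763 CPM against 5863 CPM, and the macrophage gene *C1qa* at 0. The 10 cells of WT had 12563 CPM of *Spp1* against 3635 CPM, 98.9 CPM of *Acan* against 10.3 CPM, no UMI of *Bglap*, *Sp7* or *Tnmd*, and 93.1 CPM of *Scx* against 91.3 CPM.

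*Runx2* was found at low levels in tenocyte-like cells: 5.50 CPM (4.97 to 6.07) in WT, 15.7 CPM (14.4 to 17.0) in DTR and 8.80 CPM (7.11 to 10.8) in B6. The ratio to WT was 2.85 (2.51 to 3.25) in DTR and 1.60 (1.26 to 2.01) in B6, and in DTR it was 2.18 in female and 4.30 in male cells. Thinned shares of positive cells were 0.940%, 3.10% and 2.02%. The 24 *Ibsp* cells of DTR held 25 *Runx2* UMIs, and the other tenocyte-like cells had 15.2 CPM, so the difference was nearly as large without them. *Runx2* was higher in T cell-like cells, with 94.1, 116 and 65.5 CPM, than in tenocyte-like cells of every library. T cell-like cells held 17.2%, 24% and 15% of its UMIs in kept cells. Nerve-like cells were also above tenocyte-like cells in WT and DTR, with 18.2 and 48.0 CPM from 7 and 21 UMIs, a ratio of 2.64 (1.08 to 7.36). In B6 muscle-like cells were above tenocyte-like cells, with 42.1 CPM. Classes under 50 cells in a library were not ranked here. The 42 nerve-like cells of B6, 0.875% of its kept cells, held 6.56% of the *Runx2* UMIs of kept cells. The 30 and 42 muscle-like cells of WT and DTR, 0.359% and 0.641% of kept cells, held 1.65% and 1.53%. The T cell ratio was 1.23 (0.989 to 1.54) in DTR, whose interval holds 1, and 0.696 (0.486 to 0.983) in B6. Epitenon-like cells had 2.79, 5.65 and 1.92 CPM, 2.03 times WT in DTR (1.40 to 2.98), and macrophage-like cells 1.77, 5.88 and 1.70 CPM, 3.32 times (1.93 to 6.05) from 16 and 89 UMIs. Female macrophage-like cells had 1.96 CPM (0.980 to 3.51) in WT and 2.83 CPM (1.55 to 4.75) in DTR, with intervals that overlap. Male cells had 1.25 CPM (0.258 to 3.66) and 7.63 CPM (5.84 to 9.81), from 3 and 61 UMIs.

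None of the 9 partners and regulators of RUNX2 that reached the minimum, such as its DNA-binding partner *Cbfb* and the antagonist *Twist1*, was 2-fold different in tenocyte-like cells of DTR or of B6; the list medians were log2 ratios of 0.07 and −0.06. Of 16 genes of bone morphogenetic protein (BMP) signalling, 2 were at least 2-fold higher in DTR and none lower. These were the BMP target genes *Id1*, at 66.2 CPM in WT and 192 CPM in DTR (2.89 times, 2.79 to 3.00), and *Id3*, at 453 and 1066 CPM (2.35 times, 2.32 to 2.39). In B6 none of the 16 was 2-fold different. In epitenon-like cells of DTR, 1 of 18 BMP genes was at least 2-fold higher, *Nog* (3.17 CPM in WT and 7.12 CPM in DTR). At least 2-fold lower were 2, among them *Bmp7* (5.01 and 1.16 CPM). Among 17 BMP genes in epitenon-like cells, 2 were at least 2-fold lower in B6, with *Chrdl1*, which encodes a BMP antagonist, at 68.1 CPM in WT and 22.2 CPM in B6 (0.326 times, 0.297 to 0.358) and *Bmp7* at 5.01 and 0.725 CPM, and none was higher. Of 3 osteoblast genes at the minimum, 1 was 2-fold higher in DTR, *Bglap*, at 0.307 and 7.08 CPM, from the few cells above, and the 6 osteoblast markers summed to 3.41, 13.9 and 4.68 CPM in tenocyte-like cells of the 3 libraries, with *Sp7* at most 0.190 CPM and *Dmp1* at most 0.0271 CPM. In epitenon-like cells the 1 of 3 osteoblast genes that was 2-fold higher in DTR was *Bglap2*, at 11.1 CPM in WT and 22.7 CPM in DTR (2.05 times, 1.70 to 2.47). The 1 of 4 that was 2-fold higher in B6 was *Phex*, at 3.68 CPM in WT and 13.2 CPM in B6, and none was 2-fold lower.

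Immediate early genes, which dissociation of a tissue can raise, moved with the group too. Their 13 members summed to 7777 CPM in tenocyte-like cells of WT, 11893 CPM in DTR and 14498 CPM in B6, and to 12001, 12905 and 9632 CPM in macrophage-like cells. In tenocyte-like cells of DTR 1 of 13 was at least 2-fold higher (*Egr2*, at 16.9 and 39.9 CPM), and of B6 5 of 13, led by *Fos*, at 1235 and 3506 CPM, and *Zfp36*, at 500 and 1294 CPM, with *Atf3* at 704 and 1676 CPM, *Egr2* at 16.9 and 38.5 CPM and *Nr4a1* at 90.7 and 189 CPM. In epitenon-like cells of B6, 3 of 13 were higher, *Zfp36* (522 and 1313 CPM), *Junb* (1063 and 2370 CPM) and *Egr1* (874 and 1752 CPM), and in macrophage-like cells 3 of 13 were lower, *Egr2* (201 and 35.6 CPM), *Nr4a1* (253 and 117 CPM) and *Ier2* (242 and 117 CPM). Their part in the differences of the members was not tested.

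*Mgp* encodes a vitamin K-dependent inhibitor of mineral in cartilage and vessel walls. Its level was highest in mural-like cells of WT and DTR, at 2216 CPM (2129 to 2307) and 4010 CPM (3911 to 4112), a ratio of 1.81 (1.73 to 1.90); 35 mural-like cells of B6 had 1117 CPM. Tenocyte-like cells had 648 CPM (642 to 654) in WT, 2178 CPM (2163 to 2193) in DTR and 1489 CPM (1466 to 1513) in B6. The ratios to WT were 3.36 (3.32 to 3.40), with a larger ratio in 14 of 2796 genes, and 2.30 (2.26 to 2.34), with a larger ratio in 73 of 2691 genes. Thinned shares of positive tenocyte-like cells were 34.2%, 59.3% and 41.8%, and 3.71%, 3.62% and 3.50% in macrophage-like cells. *Mgp* in macrophage-like cells, at 20.6, 18.6 and 21.4 CPM, was at most 2.62 times what free tenocyte RNA would bring.

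The B6 difference in *Mgp* depended on which tenocyte-like cells were compared. Female cells had 625 CPM in WT, 1810 CPM in DTR and 1905 CPM in B6, and male cells 631, 2444 and 876 CPM, so that the ratio of B6 to WT was 3.05 in female and 1.39 in male cells. In cells above the cut for the *Ucma* set the levels were 542, 1822 and 497 CPM, with B6 at 0.916 times WT, and in cells below it 767, 2702 and 1790 CPM. Of tenocyte-like cells, 188 of 891 were above this cut in B6. Cells above the cut for *Igfbp3* and *Scn7a* had 1867, 5765 and 2836 CPM. The DTR level was above that of WT in every subset and in both sexes.

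Epitenon-like cells differed from tenocyte-like cells in *Mgp*. They had 407 CPM (397 to 417) in WT, 194 CPM (187 to 201) in DTR and 401 CPM (395 to 408) in B6, which is 0.476 times WT in DTR (0.456 to 0.497) and 0.985 times in B6 (0.957 to 1.01). Assigning each cell to the class with the highest marker score instead turned the first ratio to 1.38. Among epitenon-like cells, *Runx2* was the 1 of 4 members at least 2-fold higher in DTR, against 0.502% of 9559 genes, and *Mgp* the 1 at least 2-fold lower, against 1.66%. In B6 *Spp1* was the 1 of 3 members 2-fold lower, against 1.84% of 9501 genes, and none was 2-fold higher, against 1.88%. From DTR to B6 *Mgp* was 2-fold higher, against 3.64% of 9510 genes, and the other 3 members at the minimum (*Spp1*, *Enpp1* and *Runx2*) 2-fold lower, against 2.43%. Among epitenon-like cells *Runx2* reached the minimum in DTR alone, at 5.65 CPM against 2.79 CPM in WT and 1.92 CPM in B6. *Spp1* did not reach it in B6, at 3.12 CPM. Endothelial-like cells had 329, 382 and 534 CPM of *Mgp*, 1.16 times WT in DTR (1.02 to 1.31) and 1.62 times in B6 (1.45 to 1.82). They also carried mural markers, which summed to 919, 720 and 3055 CPM in WT, DTR and B6. Whether RNA of mural cells, which are rich in *Mgp*, makes up part of these levels was not tested. With more epitenon-like cells in the B6 library, these held 33.4% of its *Mgp* UMIs and tenocyte-like cells 36.9%, against 9.46% and 68.3% in WT and 2.91% and 77.4% in DTR.

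Of 9 other extracellular inhibitors of mineral and genes of the vitamin K cycle at the minimum, none was 2-fold different in tenocyte-like cells of DTR. In B6, 2 were at least 2-fold lower and none higher. *Sparc* (osteonectin, a collagen-binding protein) stood at 7297 CPM in WT and 2882 CPM in B6 (0.395 times, 0.390 to 0.399), and *Tnfrsf11b* (osteoprotegerin, which blocks the formation of osteoclasts) at 65.8 and 32.0 CPM (0.487 times, 0.435 to 0.543).

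**Figure D4:**
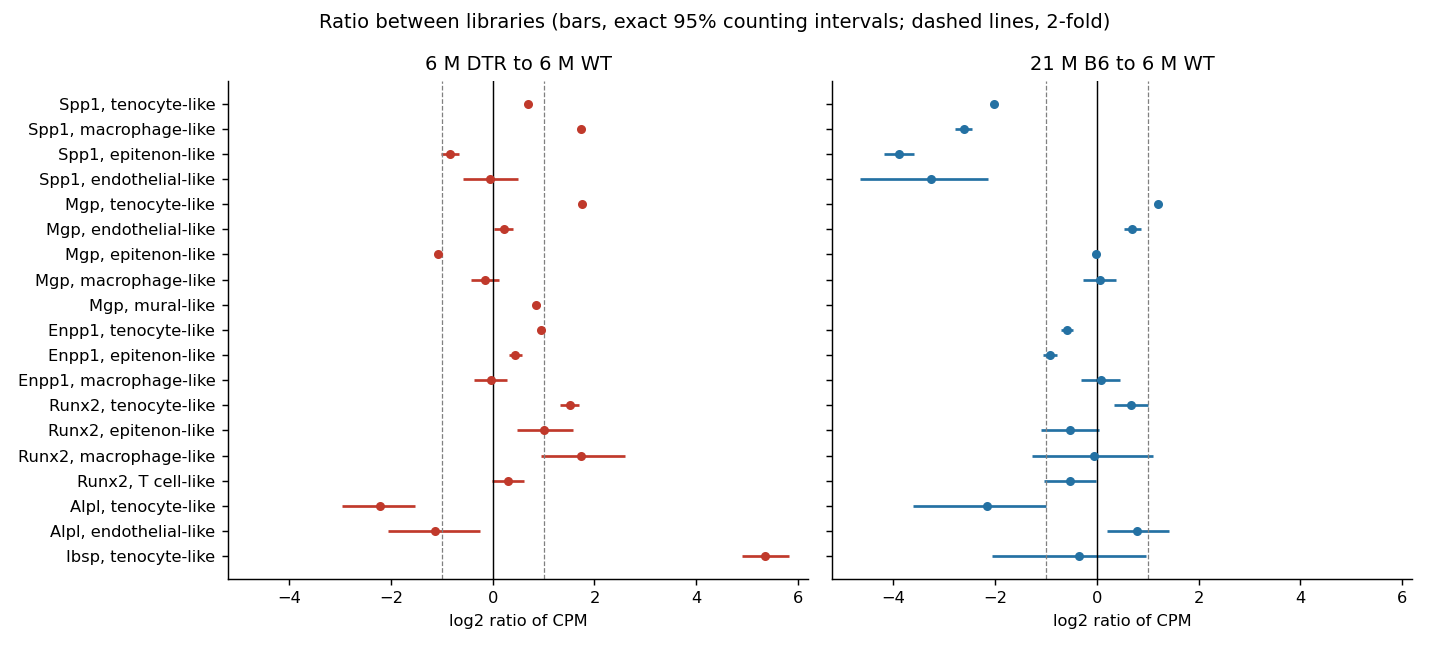
Ratio of CPM to WT (log2 axis) for chosen pairs of a member and a cell class, for DTR on the left and B6 on the right. Bars are exact 95% counting intervals, dashed lines mark 2-fold, and a class with under 50 cells in a library has no point. Other pairs, such as *Spp1* in T cell-, mural- and nerve-like cells, are not drawn. *Mgp* was higher in tenocyte-like cells of both libraries, and *Spp1* was higher than WT in DTR and lower in B6 in tenocyte- and macrophage-like cells.

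*Enpp1*, the source of extracellular pyrophosphate, had its highest level in tenocyte-like cells: 91.4 CPM (89.2 to 93.6) in WT, 175 CPM (171 to 180) in DTR and 61.2 CPM (56.6 to 66.1) in B6. The WT level overlapped that of nerve-like cells, 67.4 CPM (44.0 to 98.8). Ratios to WT were 1.92 (1.85 to 1.99) in DTR and 0.670 (0.617 to 0.726) in B6, and thinned shares 16.2%, 26.7% and 11.1%. Of 2796 genes with at least 50 CPM, 65 had a larger ratio in DTR, and 326 of 2691 a smaller one in B6. Over the processing alternatives the ratio ran from 1.68 to 2.04 in DTR and from 0.588 to 0.801 in B6. By sex the DTR ratio was 1.68 in female and 1.99 in male cells. Epitenon-like cells showed the same order of the libraries, with 49.0, 66.9 and 25.9 CPM, 1.36 times (1.24 to 1.5) and 0.529 times (0.480 to 0.583) WT. Over the alternatives these 2 ratios ran from 1.10 to 1.37 and from 0.387 to 0.645. In macrophage-like cells the levels were 15.0, 14.5 and 15.7 CPM, with intervals of both ratios that hold 1. Of tenocyte-like cells with and without *Spp1*, 18.1% (16.8 to 19.5) and 13.4% (12.0 to 15.0) had *Enpp1* in WT and 28.8% (26.8 to 30.9) and 22.6% (20 to 25.4) in DTR. In B6 the shares were 13.6% (9.63 to 18.4) of 258 cells and 10.1% (7.87 to 12.7) of 633 cells, with intervals that overlap.

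*Alpl*, which removes pyrophosphate, was at the opposite end. Its highest level was in endothelial-like cells, at 24.6 CPM (17.3 to 34.1) in WT, 11.3 CPM (6.57 to 18.1) in DTR and 42.6 CPM (33.2 to 53.7) in B6, from 36, 17 and 71 UMIs. The ratios to WT were 0.458 (0.241 to 0.837) and 1.73 (1.14 to 2.65). Tenocyte-like cells had 2.5, 0.542 and 0.562 CPM, from 179, 20 and 6 UMIs, 0.217 times WT in DTR (0.129 to 0.345) and 0.225 times in B6 (0.0814 to 0.499), and 11 of the 20 UMIs in DTR came from 2 of the *Ibsp* cells. Macrophage-like cells had no *Alpl* UMI in any library, with intervals that reach 0.409, 0.244 and 0.523 CPM, and T cell- and nerve-like cells had none either. Ungated cells held 44.9% of the *Alpl* UMIs of kept cells of B6.

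Of 7 other phosphate and pyrophosphate genes at the minimum in tenocyte-like cells, 2 were at least 2-fold higher in DTR and none lower. *Ank*, the pyrophosphate exporter, had 95 CPM in WT and 217 CPM in DTR (2.28 times, 2.21 to 2.36), and *Nt5e* (CD73), which makes adenosine from AMP, a product of ENPP1, had 135 and 272 CPM (2.01 times, 1.96 to 2.07). In B6, *Ank* stood at 73.1 CPM, and the 1 gene past 2-fold was *Abcc1*, an exporter of organic anions, at 41.7 CPM in WT and 16.8 CPM in B6 (0.404 times, 0.345 to 0.469). The phosphate importer *Slc20a1* was at 42.5, 64.4 and 44.2 CPM. *Phospho1*, which frees phosphate inside the matrix vesicles of bone, and *Smpd3* were at most 0.298 CPM in every library. In epitenon-like cells 1 of 8 of these genes was at least 2-fold lower in DTR, *Entpd1* (CD39, which breaks down extracellular ATP), at 10.6 CPM in WT and 4.43 CPM in DTR, and none of 9 was 2-fold different in B6. In macrophage-like cells *Nt5e* was at 9.19 CPM in WT and 31.9 CPM in DTR (3.47 times, 2.74 to 4.43).

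**Figure D5:**
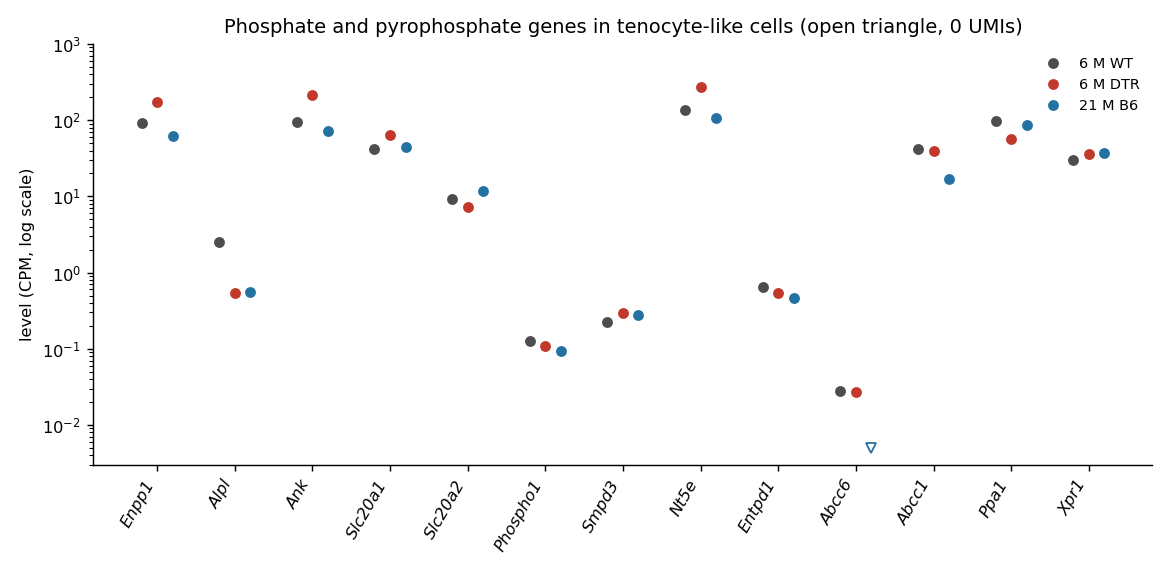
Level (CPM, log axis) of *Enpp1*, *Alpl* and the 11 listed phosphate and pyrophosphate genes in tenocyte-like cells of WT (grey), DTR (red) and B6 (blue), 1 library each; the open triangle marks 0 UMIs. *Enpp1*, *Ank* and *Nt5e* were highest in DTR, and *Alpl* was highest in WT.

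Genes with the pattern most like that of a member were found by Pearson correlation of log2(CPM + 1) over 20 sums of a class in a library, among 6333 genes with at least 50 CPM in 1 of them; sums of 1 library share its preparation, so r is given as a description. *Spp1* was most like *Cilp2* (r = 0.83), *Ank* (0.83), *Chad* (0.83), *Col11a1* (0.83) and *Fibin* (0.81), of which *Cilp2* and *Fibin* are tenocyte markers used for the classes. *Mgp* was most like *Mfge8* (0.96), *Foxc1* (0.95), *Pdgfrb* (0.93), *Lmcd1* (0.92) and *Igfbp7* (0.92). *Runx2* was most like *Nebl* (0.89), *Crnkl1* (0.87), *Hist1h4h* (0.87), *Mplkip* (0.87) and *Vps4a* (0.86), and *Enpp1* most like *Mir99ahg* (0.90), *Gm15417* (0.90), *Tspan3* (0.90), *Vkorc1* (0.89) and *Zfhx4* (0.89). *Ibsp* and *Alpl* did not reach 50 CPM in any class.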

How the data were processed

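The members and gene lists were chosen with earlier results of these data known. The authors prepared 10x Genomics 3′ (version 3) libraries from pooled tendons and deposited raw UMI counts per gene and barcode; the matrix headers name Cell Ranger 6.0.1, the submitters' processing notes 2.1.1, and the genome build is not given in the sources used here. From the deposited counts, cells were kept by the study's limits on genes (1000 to 5000) and mitochondrial UMIs (10%). Classes came from the marker gates given above; cells with markers of several classes stayed ungated, and no doublet caller was run. UMIs were summed per class and library. Ratios used classes with at least 50 cells in both libraries; a gene was counted as higher or lower past 2-fold with at least 5 CPM in 1 of them. Poisson, binomial and ratio intervals are exact, at 95%. The kept cells held 113520862, 85926015 and 65736291 UMIs in WT, DTR and B6, and thinning left out 9, 5 and 1 of them. Named are all members, the osteopontin receptors, list genes with at least 20 CPM past 2-fold (at most 4 per list and class), and the 5 genes most alike in pattern. *Bglap*, *Phex*, *Itga8*, *Nr4a1* in tenocyte-like cells, *Nog*, *Bmp7*, *Entpd1*, *Cbfb*, *Twist1*, the other phosphate genes, genes of the *Ibsp* cells and those of the closing section were named after their values were seen. Python 3.11.15, numpy 2.4.6, scipy 1.17.1, pandas 2.3.3, matplotlib 3.10.9, R 4.3.3 and edgeR 4.0.16 (scaling factors only) were used, and the ratio and thinning steps were tested on simulated data. Positions are from GENCODE M21 and promoters from RefSeq. Protein sequence features were not analysed here, and 1 gene is not reported here.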

Additional observations from a re-analysis of the deposited data

Results flagged for a closer look

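With 1 library per group these differences between cell classes were not tested; each pair was noted because the intervals of the ratio lay on opposite sides of 1 in different classes. *Mgp* in DTR was 3.36 times WT in tenocyte-like, 1.81 times in mural-like and 1.16 times in endothelial-like cells, but 0.476 times in epitenon-like cells. In endothelial-like cells, which also carried mural markers, the source of *Mgp* was not tested. *Spp1* in DTR was 1.61 times WT in tenocyte-like, 3.32 times in macrophage-like and 1.76 times in T cell-like cells. It was 0.563 times WT in epitenon-like and 0.547 times in nerve-like cells, the latter from a minority of cells. In epitenon-like cells the upper quartile of single cells was 0.491 in both libraries, on the single-cell scale used above. The highest cell had 82.6 in WT and 6.11 in DTR. After thinning, 92.6% and 94.7% of epitenon-like cells had no *Spp1*. The level of *Spp1* was below the estimate for free tenocyte RNA in epitenon-like cells and near it in T cell-like cells. Its source in these 2 classes was not tested. *Alpl* in B6 was 1.73 times WT in endothelial-like cells and 0.225 times in tenocyte-like cells, the latter from 6 UMIs. *Runx2* in B6 was 1.60 times WT in tenocyte-like and 0.696 times in T cell-like cells.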

How the results depend on the processing

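No paired analysis was possible because each group has 1 library. In what follows the pair of values is DTR, then B6, as ratios to WT. For *Spp1* in tenocyte-like cells, 1.61 and 0.245 became 1.64 and 0.275 with a mitochondrial limit of 5%, 1.70 and 0.282 with no upper gene limit, 1.57 and 0.236 with classes by highest marker score, 1.5 and 0.252 without the 5% of cells with most UMIs, 1.49 and 0.262 as the mean of single-cell CPM, 1.5 and 0.289 with TMM scaling, 1.53 and 0.294 with median-of-ratios scaling, 2.22 and 0.315 in male and 1.43 and 0.237 in female cells; a stricter gate gave 1.59 in DTR and non-mitochondrial scaling 0.252 in B6. For *Mgp* in tenocyte-like cells, 3.36 and 2.30 became 3.05 and 1.75 with the marker score, 3.24 and 2.24 without the deepest cells, 3.05 and 2.12 as the mean of cells, 3.13 and 2.71 with TMM, 3.19 and 2.75 with median-of-ratios scaling, 3.87 and 1.39 in male and 2.89 and 3.05 in female cells; the stricter gate gave 3.43 in DTR, and in B6 mitochondrial limits of 5% and 20% gave 2.0 and 2.45, no upper gene limit 2.17 and non-mitochondrial scaling 2.36. For *Spp1* in macrophage-like cells, 3.32 and 0.163 became 2.31 and 0.117 with no upper gene limit, 3.91 and 0.253 without the deepest cells, 2.83 and 0.118 in male and 2.65 and 0.261 in female cells, and in DTR 3.51 with the stricter gate, 2.61 with the marker score and 3.03 as the mean of cells. None of these turned a direction. In epitenon-like cells the DTR ratio of *Spp1*, 0.563, became 1.68 with no upper gene limit and 1.00 in male cells, and that of *Mgp*, 0.476, became 1.38 with the marker score; the cause was not tested. The share of tenocyte-like cells with *Spp1* was 50.9%, 57.8% and 24% in WT, DTR and B6 when thinned to 1000 UMIs, 65.9%, 72.7% and 35.3% at 4000 UMIs and 48.5%, 55.3% and 21.5% when 2 UMIs were asked for. With no minimum level other than 1 UMI in both libraries, all 6 members entered. Those at least 2-fold lower numbered 1 in DTR and 2 in B6. Of the 86 list genes, 82 entered for DTR, with 11 higher and 3 lower (6 and 0 before). For B6 77 entered, with 6 lower (3 before). Over all genes, 1988 were higher and 994 lower of 19307 in DTR, and 1644 and 1596 of 16564 in B6. Past 1.5-fold at the 5 CPM minimum, members higher numbered 5 in DTR and 2 in B6. List genes numbered 14 higher and 2 lower in DTR and 13 higher and 6 lower in B6. All genes numbered 734 higher and 565 lower of 9410 in DTR, and 598 and 1599 of 9196 in B6. TMM gave 11 list genes higher in B6. The count of UMIs limits *Ibsp* in B6, where the ratio ran from 0.627 to 3.34 over the alternatives, and *Alpl* outside endothelial-like cells.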

Other observations

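The 25% of tenocyte-like cells with most *Spp1* differed from the other cells in the same direction in all 3 libraries for a set of genes picked after their values were seen; cells were chosen on the same UMIs, so this is a description. In WT, DTR and B6, *Tnfrsf11b* stood at 132, 122 and 72.9 CPM in the *Spp1*-high cells and 42.5, 31.6 and 18.9 CPM in the rest, and *Fn1* (fibronectin) at 3865, 5294 and 1750 CPM against 2146, 2618 and 590 CPM. *Tnfaip6*, an inducible hyaluronan-binding protein, was lower in them, at 24.9, 26.5 and 78.7 CPM against 99.1, 121 and 244 CPM, as was *Apod* (apolipoprotein D), at 165, 153 and 776 CPM against 777, 722 and 2197 CPM. The 25% with most *Mgp* had more *Tnfaip6*, at 155, 203 and 330 CPM against 56.3, 60.4 and 163 CPM, and more *Mmp2*, a matrix metalloproteinase, at 180, 1126 and 527 CPM against 71.6, 505 and 241 CPM.

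In epitenon-like cells the 25% with most *Mgp* had more *Sfrp4*, a Wnt antagonist, at 298, 298 and 114 CPM against 38.8, 41.2 and 27.3 CPM, and less *Slurp1*, at 67.4, 34.6 and 20.7 CPM against 318, 203 and 81.2 CPM. The 25% of macrophage-like cells with most *Spp1*, which in B6 includes cells at 0 UMIs taken from ties, had more *Ptgs2* (cyclooxygenase), at 683, 297 and 237 CPM against 141, 140 and 93.5 CPM, and more of *Chad*, which tenocyte-like cells carry, at 122, 54.1 and 60 CPM against 18.5, 13.9 and 7.44 CPM; their tenocyte markers summed to 645, 169 and 104 CPM against 132, 150 and 92.9 CPM. *Ctsk* (cathepsin K, the collagen-degrading protease of osteoclasts) was at 195, 465 and 152 CPM in tenocyte-like cells, and at 105, 203 and 160 CPM in macrophage-like cells. Of the other osteoclast markers, *Acp5* (tartrate-resistant acid phosphatase) was at 156, 81.4 and 24.2 CPM in macrophage-like cells and at most 4.01 CPM in tenocyte-like cells, *Dcstamp* at 3.54, 5.68 and 7.37 CPM in macrophage-like cells, and *Mmp9*, *Ocstamp* and *Calcr* below 1 CPM in both classes. *Dmp1*, of the same family as *Spp1* and *Ibsp*, was at 35.8, 5.21 and 3.17 CPM in mural-like cells, which numbered 130, 177 and 35. In the mural-like cells of B6, 3.17 CPM is the level of 1 UMI.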
